A study of Mus musculus with 12 samples.

Results

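The 10 genes described here encode proteins of the intestinal mucus and of the goblet cells that secrete it. They were chosen by name, and all 10 were found among the 45808 genes of the deposited table. The gel-forming mucin, Muc2, stands beside the mucus proteins Fcgbp, Zg16 and Clca1, the small secreted proteins Tff3, Spink4 and Retnlb, the folding enzyme Agr2, the transcription factor Spdef and the membrane mucin Muc13. Polyadenylated RNA of the distal ileum, the last stretch of the small intestine, was sequenced from mice of the inbred strain BALB/c. There were 6 libraries from animals treated with Porphyromonas gingivalis and 6 from controls given phosphate-buffered saline (PBS). P. gingivalis is an oral bacterium associated with periodontitis. By its title, the series asks how it relates to inflammation of the intestine. The labels give no age, sex, route, dose or duration, and do not say whether each library came from its own mouse, so p-values measure the spread between these libraries. Whole tissue was used, so fewer goblet cells and less RNA per goblet cell cannot be told apart.

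Goblet cells are secretory cells of the gut epithelium that arise from crypt progenitors under the transcription factor Atoh1, and Spdef, an ETS family factor, promotes their maturation. They fold Muc2 in the endoplasmic reticulum with the help of Agr2, a protein disulfide isomerase, decorate it with O-linked sugars in the Golgi and store it in granules. After release it swells into the mucus that lies between bacteria and the epithelium. Fcgbp is bound to this gel, Clca1 is a metalloprotease that processes it, and Zg16 is a lectin that binds Gram-positive bacteria. Tff3 is a trefoil peptide linked to epithelial repair, Spink4 belongs to the Kazal family of protease inhibitors, and Retnlb is a goblet cell protein with antibacterial activity, known in mouse mainly from the large intestine. Muc13 stays anchored in the apical membrane, where it is part of the glycocalyx of goblet cells and enterocytes.

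Values are normalized counts, that is, read counts per gene that the authors divided by a size factor for each library. Depth was 6553306 to 9875045 reads for P. gingivalis and 7610970 to 10378841 reads for PBS libraries. Libraries are named by the number in their title. Fabp6, the bile acid binding protein of ileal enterocytes, was at 2.52 normalized counts in P. gingivalis replicate 1, 16.0 in P. gingivalis replicate 5 and 4.32 in PBS replicate 6, and at 11246 or more in the other 9 libraries. Fabp1, a fatty acid carrier typical of more proximal enterocytes, had 26745, 21996 and 16938 in the same 3 libraries, in that order, against at most 1821 elsewhere. The labelled tissue is thus not matched by this ileal marker in 3 libraries. The differences of the 9 tested genes are given with and without them. Other results include them unless stated. P. gingivalis replicate 6 stood apart in another way, with Fabp1 at 18.3 and Lct, lactase, at 0.870. Markers of other cells were summed per library, and limma called 0 genes of these lists. Mesothelial markers summed to 50.4 to 99.7 normalized counts in P. gingivalis and 132 to 288 in PBS libraries, with no overlap. At a limma unadjusted p under 0.05 were all 4 tested mesothelial genes, all 8 fat cell genes and 3 of 10 smooth muscle genes, all lower. So was 1 of 5 tested T cell genes, higher. Of all genes tested, 2.16% were lower and 1.57% higher at that p. All 10 smooth muscle differences were negative, while all 10 B cell and all 5 tested T cell differences were positive. Of all 15025 genes tested, 7674 were negative and 7351 positive. The other sums overlapped: enterocyte markers at 118595 to 597779 in P. gingivalis and 269340 to 475334 in PBS libraries, smooth muscle at 11590 to 37003 and 17617 to 28564, enteroendocrine at 2144 to 3250 and 2679 to 3300, and gut position genes at 22214 to 175414 and 45757 to 124181, each in that order. In the same order, B cell markers summed to 110.3 to 1037 and 109 to 858, T cell markers to 127 to 303 and 107 to 330, and tuft markers to 136 to 345 and 156 to 270. The part of these cells in the goblet cell gene values was not tested.

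Promoter sequences (250 bases before to 50 after a start, RefSeq, GRCm38.p6) were found for 5 of the 10 genes, with 6 windows in all, since Muc13 has 2. Shown are those of Agr2 and Spdef, lower in each of the 3 libraries with little Fabp6 than in the other 9, of Muc2, lower than the other 9 in 2 of the 3, and the first of Muc13, lower in none. Each reads 5′ to 3′ on the gene's strand. Capitals mark the GATA factor core GATAA, the TTTAT core bound by CDX-type homeobox factors, or the E-box CAGCTG, each searched on both strands. Adjoining matches run together.
Agr2, chr12:35992675-35992974, plus strand: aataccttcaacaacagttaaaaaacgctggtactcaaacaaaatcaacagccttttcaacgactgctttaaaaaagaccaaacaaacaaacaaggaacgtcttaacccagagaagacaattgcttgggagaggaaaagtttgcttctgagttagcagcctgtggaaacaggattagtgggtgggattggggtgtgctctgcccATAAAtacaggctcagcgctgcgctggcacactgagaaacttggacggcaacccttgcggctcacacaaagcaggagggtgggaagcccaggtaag
Spdef, chr17:27728902-27729201, minus strand: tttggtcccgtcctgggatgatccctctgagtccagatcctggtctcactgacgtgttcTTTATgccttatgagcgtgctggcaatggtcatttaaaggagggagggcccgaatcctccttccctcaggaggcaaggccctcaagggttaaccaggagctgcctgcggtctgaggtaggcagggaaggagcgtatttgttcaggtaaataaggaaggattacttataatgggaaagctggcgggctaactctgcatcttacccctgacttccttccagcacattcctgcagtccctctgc
Muc2, chr7:141690090-141690389, plus strand: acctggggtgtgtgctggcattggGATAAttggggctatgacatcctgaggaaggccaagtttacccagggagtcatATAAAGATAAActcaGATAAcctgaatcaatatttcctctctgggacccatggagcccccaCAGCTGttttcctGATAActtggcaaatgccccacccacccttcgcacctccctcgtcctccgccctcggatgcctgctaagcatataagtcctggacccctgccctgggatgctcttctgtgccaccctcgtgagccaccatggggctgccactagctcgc
Muc13, chr16:33793787-33794086, plus strand: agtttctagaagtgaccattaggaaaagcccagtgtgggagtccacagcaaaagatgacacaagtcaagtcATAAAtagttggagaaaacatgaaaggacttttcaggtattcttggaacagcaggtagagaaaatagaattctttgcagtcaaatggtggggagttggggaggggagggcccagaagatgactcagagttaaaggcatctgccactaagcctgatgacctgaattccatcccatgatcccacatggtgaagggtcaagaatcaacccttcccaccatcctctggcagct
The Muc2 window held 4 matches to GATAA, 2 to TTTAT and 1 to CAGCTG, and those shown of Agr2, Spdef and Muc13 held 1 match to TTTAT each and 0 to the other motifs. The second Muc13 window (chr16:33794239-33794538) held 1 match to GATAA and 0 to the other motifs. The Fcgbp window (chr7:28070986-28071285), not shown, held 1 match to CAGCTG and 0 to the other motifs. Among 32841 promoters of this length, 25.4% held GATAA, 40.0% held TTTAT and 16.3% held CAGCTG. These matches describe letters in the windows, and binding was not measured.

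All but Retnlb were expressed well above the filter used for testing, a mean of 10 normalized counts over the 12 libraries. None of the 9 tested genes passed the test between the groups, and the groups overlapped for each of them. At an adjusted p under 0.05, limma called 0 of the 9, and 0 of all 15025 genes tested (0%). At an unadjusted p under 0.05 there were again 0 of the 9, against 560 of all genes (3.73%), 1.57% higher and 2.16% lower. The groups failed to overlap for 0 of the 9 and for 25 of all genes (0.166%), 0.0932% higher and 0.0732% lower. On reads recovered from the values, edgeR called 0 of the 9 and 0 of 14907 genes (0%). At an unadjusted p under 0.05 it had 542 genes (3.64%), 1.82% higher and 1.81% lower. DESeq2 called 0 of the 9 and 33 of 18239 genes with an adjusted p (0.181%), 0.0164% higher and 0.164% lower. Its unadjusted p was under 0.05 for 703 of 27211 genes (2.58%), 1.23% higher and 1.35% lower. The median difference of the 9 genes was -0.18 on the log2(normalized count + 1) scale, P. gingivalis minus PBS, beside 0.00 for all genes tested. Positive differences numbered 3 and negative ones 6, beside 7351 and 7674 of all 15025 genes tested.

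Muc2, the structural mucin of the gel, lies on chromosome 7 from 141690340 to 141754693 on GRCm38. Its normalized counts ran from 16351 over a median of 30309 to 44439 in P. gingivalis libraries, and from 18305 over a median of 24872 to 38922 in PBS libraries. The PBS range lay wholly inside that of P. gingivalis, whose replicates 2 and 4 were the highest of the 12 libraries and replicate 1 the lowest. The difference was 0.26 (SE 0.28, 95% interval -0.35 to 0.86, limma adjusted p = 0.992).

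Fcgbp (chromosome 7, 28071236 to 28120862), the IgG Fc binding protein of mucus, had 35085 to 104787 normalized counts in P. gingivalis libraries (median 80772) and 50755 to 83068 in PBS libraries (median 64298). Both the highest and the lowest library, replicates 2 and 6, were from the P. gingivalis group, and the difference of 0.06 (SE 0.35, limma adjusted p = 0.996) changed sign when certain single libraries were left out. Its spread was 26590 (SD) in P. gingivalis libraries and 13486 in PBS libraries, n = 6 each. Zg16 (chromosome 7, 127050156 to 127087328), the lectin, had 13705 to 38189 in P. gingivalis libraries (median 22063) and 24998 to 42155 in PBS libraries (median 29901). Its groups overlapped, with P. gingivalis replicates 1, 4, 5 and 6 under the minimum of the PBS libraries, and its difference was -0.41 (SE 0.27, 95% interval -0.98 to 0.16, limma adjusted p = 0.992). Clca1 (chromosome 3, 145003817 to 145032776), the mucus metalloprotease, ran from 4680 over a median of 15939 to 20640 in P. gingivalis libraries and from 9461 over a median of 16601 to 22533 in PBS libraries. Each group held a cluster of high libraries and, well below it, the libraries with little Fabp6.

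Tff3 (chromosome 17, 31125306 to 31129646), the trefoil peptide, had 4593 to 11057 normalized counts in P. gingivalis libraries (median 7003) and 6832 to 14844 in PBS libraries (median 8922). PBS replicate 2 was the highest of the 12 libraries, and the difference was -0.38 (SE 0.23, 95% interval -0.88 to 0.12, limma adjusted p = 0.992). Spink4 (chromosome 4, 40920052 to 40931395), the goblet cell protease inhibitor, had 2180 to 3820 in P. gingivalis libraries (median 2907) and 2647 to 5091 in PBS libraries (median 2928). The medians nearly coincided, and the maximum was again PBS replicate 2.

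Retnlb (chromosome 16, 48816856 to 48818892), the resistin-like antibacterial protein, was below the filter. It had 9 reads, or 7.83 normalized counts, in P. gingivalis replicate 6 and 0 reads in the other 5 P. gingivalis and all 6 PBS libraries. A count of 0 allows up to 3 reads, or 2.14 to 3.78 normalized counts, so Retnlb was not detectable there at this depth, counting error only. Replicate 6 was the library with almost no Lct, and its Cyp2c55, a cytochrome P450 of the lower gut, stood at 1517, against 30.9 to 257 in the other 11 libraries.

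Agr2 (chromosome 12, 35992907 to 36004087), the disulfide isomerase, had 1487 to 4541 normalized counts in P. gingivalis libraries (median 3898) and 1916 to 5962 in PBS libraries (median 3760). Its 3 lowest values were those of the libraries with little Fabp6, at 1487 and 1535 in P. gingivalis replicates 1 and 5 and 1916 in PBS replicate 6. Spdef (chromosome 17, 27714352 to 27728955), the maturation factor, ran from 145 over a median of 232 to 284 in P. gingivalis libraries and from 195 over a median of 242 to 256 in PBS libraries. The 5 PBS libraries with Fabp6 held between 238 and 256, a narrow band, while P. gingivalis values spread beyond it on both sides.

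Muc13 (chromosome 16, 33794037 to 33819934), the membrane mucin, had 7530 to 11885 normalized counts in P. gingivalis libraries (median 9694) and 7257 to 9469 in PBS libraries (median 8644). P. gingivalis replicates 2 to 5 lay above the PBS maximum, while replicate 6 was near the bottom of the PBS range. The difference was 0.21 (SE 0.14, 95% interval -0.09 to 0.50, limma adjusted p = 0.992). Muc13 varied least, with a coefficient of variation of 14.8% over the 12 libraries against 17.9% to 37.8% for the other 8 tested genes. An antisense gene, Gm15657, overlaps its first part, and had at most 5.72 normalized counts in any library. Whether reads were counted by strand is not given in the sources used here.

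**Figure D1:**
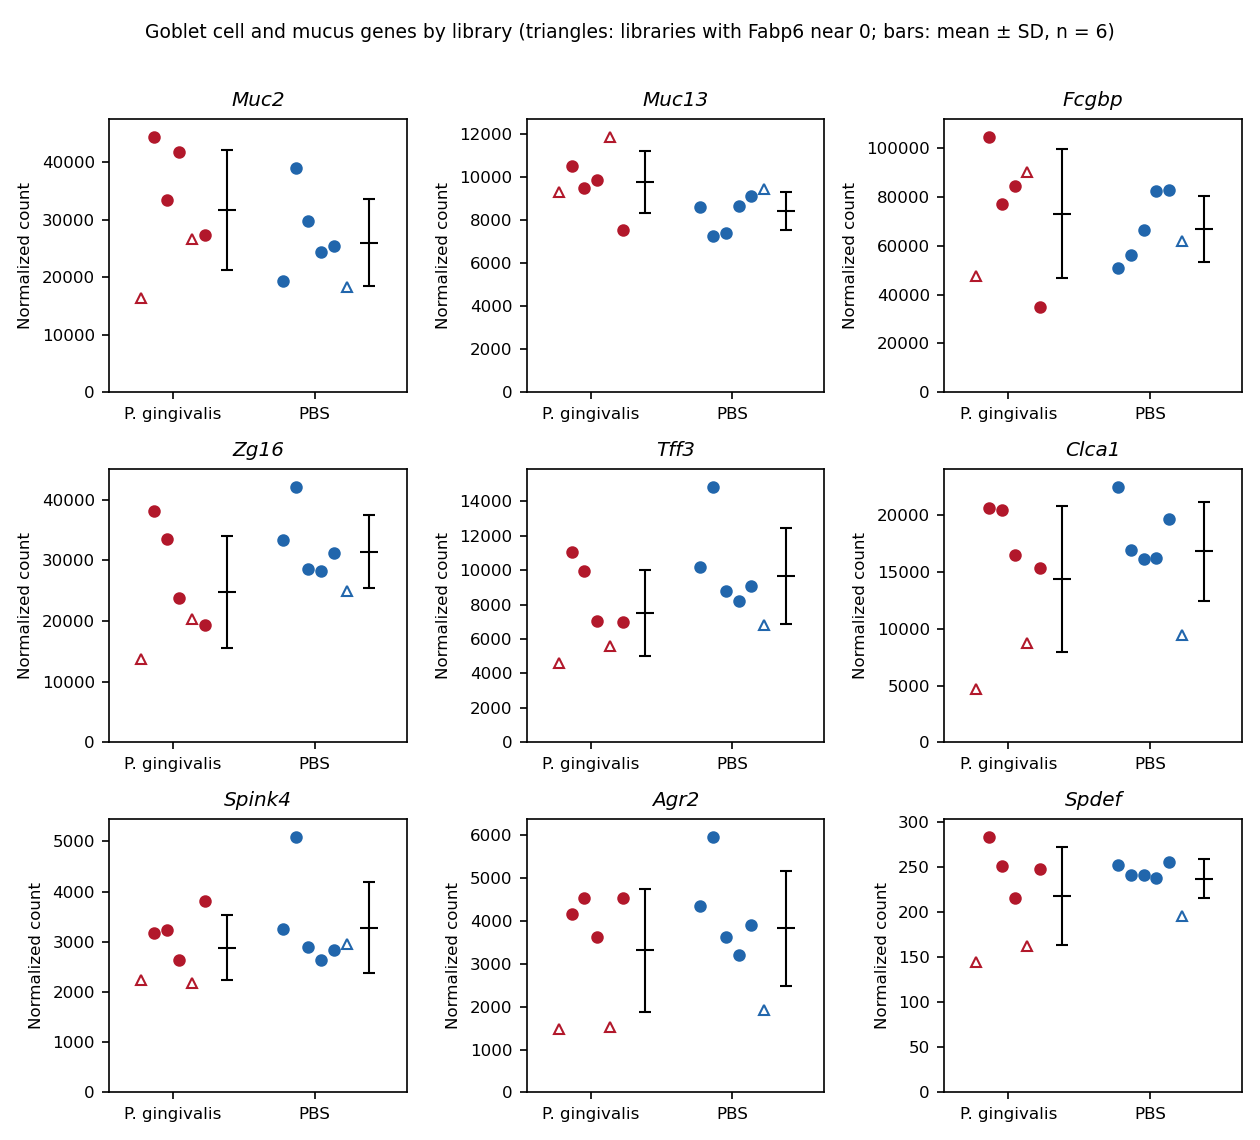
Normalized counts of the 9 tested genes in each library (vertical axes, from 0), with P. gingivalis libraries left in red and PBS libraries right in blue; triangles are the 3 libraries with little Fabp6 and bars give mean ± SD, n = 6 per group. The groups overlap in every panel, and for Clca1, Agr2, Tff3 and Spdef the triangles are the lowest points of their group.

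**Figure D2:**
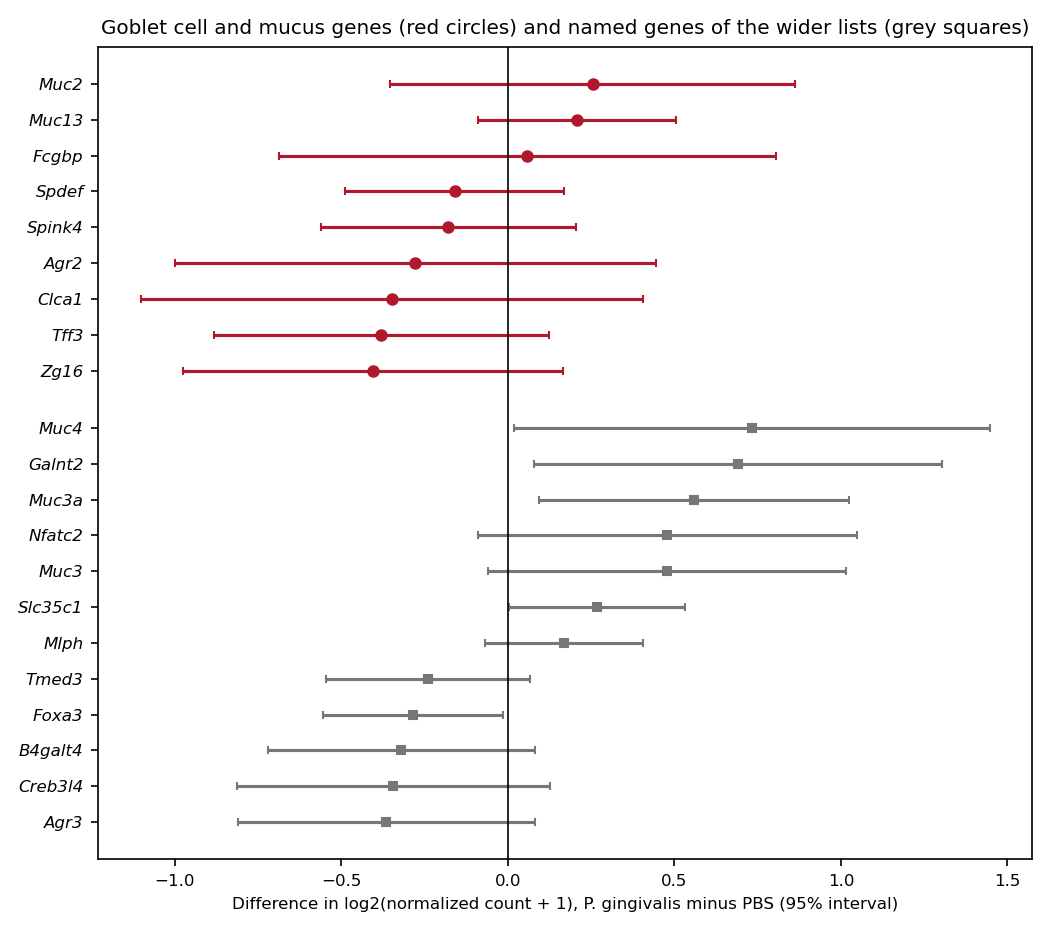
Difference in log2(normalized count + 1), P. gingivalis minus PBS (horizontal axis), with its 95% interval for the 9 tested genes (red circles) and the 12 named genes of the wider lists (grey squares). All red intervals cross 0, from -0.41 for Zg16 to 0.26 for Muc2.

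Levels varied widely between libraries of the same group. Over the 12 libraries Clca1 spanned 4.81-fold, Agr2 4.01-fold and Tff3 3.23-fold between their highest and lowest library. In the 3 libraries with little Fabp6, Clca1 stood at 4680, 8726 and 9461 normalized counts (P. gingivalis replicates 1 and 5, PBS replicate 6), against 15369 to 22533 in the other 9. Spdef stood at 145, 162 and 195 there, against 216 to 284, and Tff3 at 4593, 5582 and 6832, against 6977 to 14844. Thus 4 of the 9 tested genes (Tff3, Clca1, Agr2 and Spdef) had all 3 libraries below the other 9, a pattern that 740 of all 15025 genes tested showed (4.93%). It was not limited to goblet cell genes. Of 12 pan-epithelial markers 4 had it too (the keratins Krt8, Krt18 and Krt19 and the junction protein Cldn3). Of 10 enteroendocrine markers 2 had it (the hormones Gcg and Pyy), while 2 others, Cck and Tph1, lay above all other 9 libraries in these 3. Over all genes tested 970 (6.46%) lay above in this way. The 3 libraries were set apart by Fabp6, so this is a description, and no test was made of it.

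Muc2, Zg16 and Spink4 also had lower medians in these 3 libraries than in the other 9 (differences of -0.70, -0.62 and -0.50 log2 units), beside -0.70 for Tff3 and -0.61 for Spdef, but with overlap. Fcgbp (-0.31) and Muc13 (0.13) followed less or not at all. Muc13 was at 9306, 11885 and 9469 normalized counts in these libraries, inside or above the 7257 to 10532 of the other 9, and Fcgbp was at 47741, 90332 and 62032, inside the other libraries' range. Of the 3 libraries, only P. gingivalis replicate 1 was below the other 9 for Zg16, P. gingivalis replicates 1 and 5 for Spink4, and P. gingivalis replicate 1 and PBS replicate 6 for Muc2. P. gingivalis replicate 1 had the lowest summed level of 12 pan-epithelial markers, 67382 against 75252 to 129574 in the other P. gingivalis and 91323 to 106364 in the PBS libraries. Relative to the mean log2 level of these markers, Clca1, Agr2, Tff3 and Spdef were lower in the 3 libraries than in all other 9. How many of all genes tested were lower there on this scale was not computed. The narrowest margins were those of Tff3 (0.828 against 0.832 log2 units) and Spdef (-4.29 against -4.22). That mean mixes markers with lower medians in the 3 libraries, such as Krt19 (-0.71 log2 units), with others, such as Vil1 (0.22) and Cdh1 (0.20). The summed level of 12 Paneth cell markers was 129473 and 130188 in P. gingivalis replicates 1 and 5 and 149147 in PBS replicate 6, against 62784 to 84424 elsewhere. Its members were mixed: 5 lay above all other 9 libraries in these 3, among them the abundant Lyz1 (lysozyme) and Defa24 (a defensin), Mptx2 lay below, and the medians of Defa22 and Nupr1 differed by -1.09 and -0.89 log2 units. The part of these other cells in the goblet cell values was not tested.

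Without the 3 libraries, with 4 P. gingivalis and 5 PBS libraries left, limma again called 0 of the 9 genes, and 1 of all genes tested. The difference of Clca1 was then 0.00, of Agr2 0.03 and of Spdef 0.02, against -0.35, -0.28 and -0.16 with all libraries. Those of Muc2 (0.43), Tff3 (-0.22), Zg16 (-0.22), Spink4 (-0.03), Fcgbp (0.07) and Muc13 (0.18) kept their sign.

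**Figure D3:**
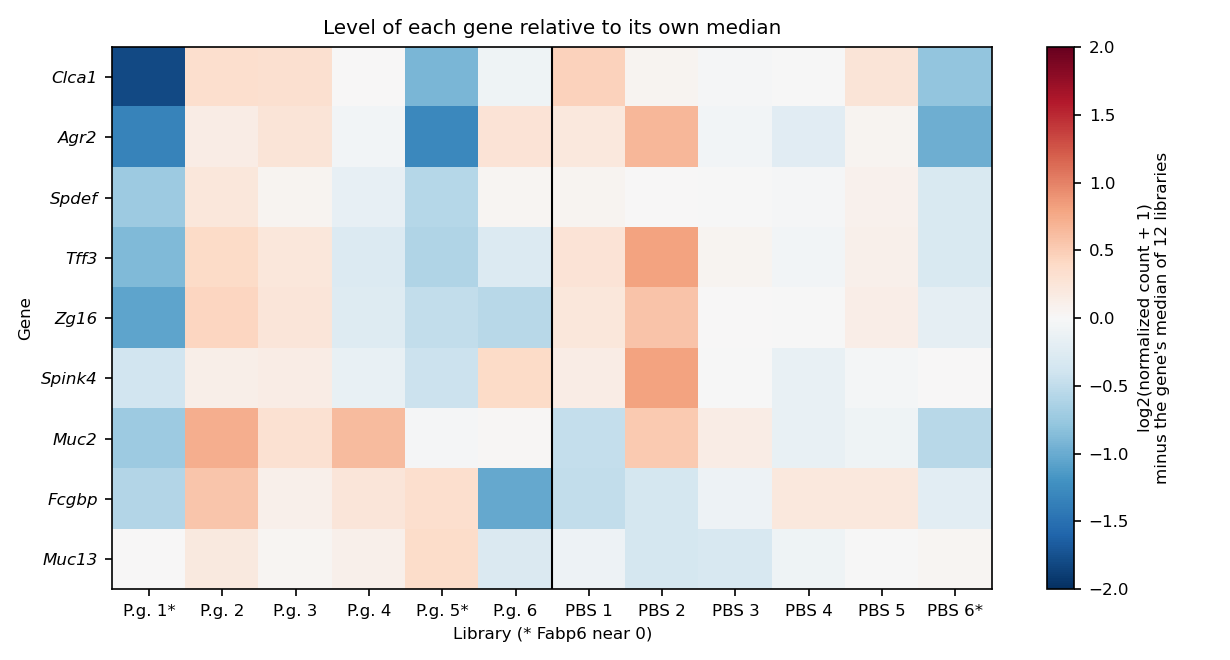
Colours give log2(normalized count + 1) minus the gene's own median of 12 libraries, with genes in rows and libraries in columns, P. gingivalis left of PBS; asterisks mark the 3 libraries with little Fabp6. Clca1, Agr2, Spdef and Tff3 are blue in all 3 marked columns, while Muc13 and Fcgbp in the bottom rows follow another order.

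Likeness between genes is given as Pearson r over the 9 libraries with Fabp6, as a description. All libraries share their size factor scaling and much of their tissue makeup. Of the 36 pairs among the tested genes, 28 had r above 0 and 5 above 0.6. The closest were Agr2 with Spink4 (0.95) and Tff3 with Zg16 (0.94), followed by Fcgbp with Muc13 (0.75). The least alike were Fcgbp and Spink4 (-0.57). Outside the 10 genes, those most like Muc2 over all 12 libraries, among 11209 genes with a mean of at least 50, were Ceacam1, a cell adhesion molecule (0.86), Cables1 (0.85), Med27, a Mediator subunit (0.85), Mterf3, a mitochondrial transcription regulator (0.82), and 4933427D14Rik (0.81). Over the 9 libraries these values were 0.76, 0.71, 0.83, 0.66 and 0.80. For Clca1 the most similar gene was Mep1a, a brush border metalloprotease (0.99 over 12 libraries, 0.90 over 9), and for Spdef it was Krt19, an epithelial keratin (0.98 over 12, 0.81 over 9). The gene most like Tff3 was Myl12b, a myosin light chain (0.99 over 12 and over 9). Over all 12 libraries, no gene outside the 10 was among the 20 most similar of 4 or more of them.

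Compared per length, as normalized counts per kilobase (kb) of merged exons, the order of mean levels over the 12 libraries was Zg16, Tff3, Fcgbp, Spink4, Clca1, Muc2, Muc13, Agr2, Spdef and Retnlb. Zg16 averaged 22377 ± 6525 per kb and Tff3 17420 ± 5576 (SD, n = 12), and Zg16 was the higher in 12 of 12 libraries. Fcgbp (6675 ± 1941 per kb) and Spink4 (6463 ± 1630) were not separated, with Fcgbp higher in 7 of 12. Clca1 (4136 ± 1432), Muc2 (4044 ± 1289), Muc13 (2996 ± 443) and Agr2 (2766 ± 1044) formed a group whose neighbours changed places between libraries. Spdef, at 98.7 ± 17.7 per kb, lay below all but Retnlb, which averaged 0.937 per kb. The exon lengths come from GENCODE M21, whose Muc2 exons sum to 7.127 kb and whose Fcgbp exons sum to 10.497 kb, and repeated sequence in mucin genes makes both the length and the read count uncertain.

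**Figure D4:**
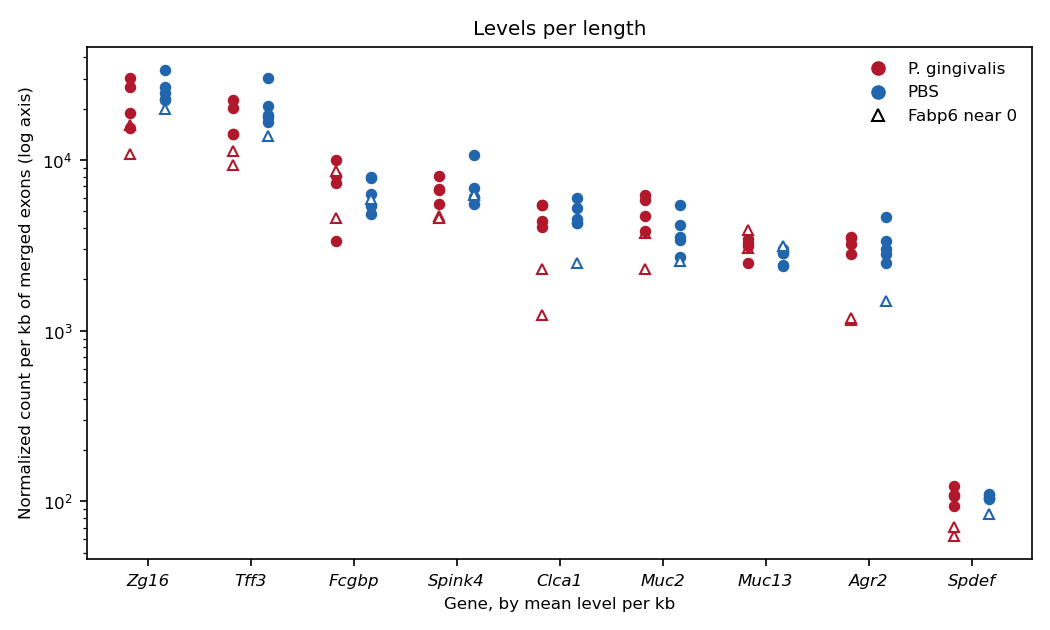
Normalized counts per kb of merged exons (vertical log axis) for 9 genes in order of their mean, each point a library, P. gingivalis in red left of PBS in blue and triangles for the 3 libraries with little Fabp6. Zg16 and Tff3 lead and Spdef is lowest, and the groups overlap for each gene.

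Set against Muc2 within each library, each of the other tested genes had a lower median after P. gingivalis. This held for Fcgbp (233 in P. gingivalis and 295 in PBS libraries per 100 of Muc2) and Muc13 (28.1 and 35.8) too. Zg16 stood at 83.8, 85.9, 100.5, 57.1, 76.1 and 71.0 normalized counts per 100 of Muc2 in P. gingivalis replicates 1 to 6, and at 172, 108, 96.1, 116, 123 and 137 in PBS replicates 1 to 6. Only P. gingivalis replicate 3 and PBS replicate 3 crossed. Tff3 stood at 28.1, 24.9, 29.8, 16.8, 21.0 and 25.6 per 100 of Muc2 in P. gingivalis and at 52.5, 38.1, 29.4, 33.5, 35.8 and 37.3 in PBS libraries, with the same 2 libraries crossing. Clca1 had medians of 43.0 in P. gingivalis and 60.4 in PBS libraries, and Agr2 of 9.23 and 14.3 in the same order, with wider overlap. The ratios of Zg16, Tff3, Clca1 and Agr2 combine a higher mean of Muc2 in P. gingivalis libraries with lower means of these genes. Fcgbp and Muc13 had higher means there, like Muc2. All these ratios were computed after the values had been seen and were not tested.

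For the 8 other tested genes the log2 ratio to Muc2, P. gingivalis minus PBS, ran from -0.66 (Zg16) and -0.64 (Tff3) to -0.05 (Muc13). The same ratio had a median of -0.26 over the 15024 other genes tested, of which 4.59% were as low as Tff3 or lower and 5.26% as low as Clca1 or lower. The groups failed to overlap on this ratio in 19 of them (0.126%), all lower, and in 0 of the 8.

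**Figure D5:**
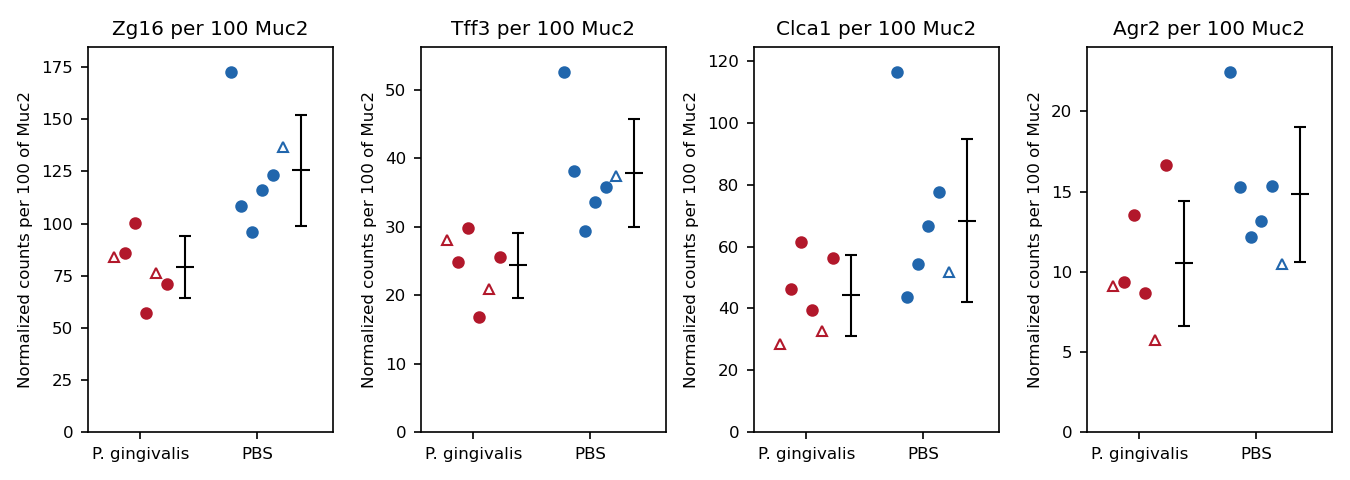
Normalized counts of Zg16, Tff3, Clca1 and Agr2 per 100 of Muc2 in the same library (vertical axes, from 0), P. gingivalis libraries left of PBS libraries, with triangles for the 3 libraries with little Fabp6 and bars for mean ± SD, n = 6. For Zg16 and Tff3 the highest P. gingivalis library lies just above the lowest PBS library.

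Wider lists covered the steps around these genes. Their counts of positive and negative differences use all 12 libraries, including the 3 with little Fabp6. Over all 15025 genes tested, 7351 differences were positive and 7674 negative. In the list of goblet cell transcription factors and signals all 18 genes were tested, 11 with positive and 7 with negative differences (median 0.04), and 0 were called. Foxa3, a forkhead factor of endoderm and goblet cells, averaged 159 ± 32.0 normalized counts in P. gingivalis and 191 ± 15.6 in PBS libraries (SD, n = 6 each), a difference of -0.29 (SE 0.13, limma adjusted p = 0.992, unadjusted p = 0.0403). Nfatc2, a calcium-regulated factor, differed by 0.48 (SE 0.26) and Creb3l4, an endoplasmic reticulum bound factor, by -0.34 (SE 0.22). Without the 3 libraries with little Fabp6, Foxa3 differed by -0.17 and Creb3l4 by -0.15. Atoh1, the factor that specifies the secretory lineage, was named for its role rather than by rank, and followed Spdef: it was at 93.3, 162 and 175 in the 3 libraries with little Fabp6, against 218 to 270 in the other 9.

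Enzymes and transporters of mucin O-glycosylation numbered 30, of which 28 were tested, 14 positive and 14 negative (median 0.00), with 0 called. Galnt2, one of the enzymes that attach the first sugar, averaged 14.3 ± 3.67 in P. gingivalis and 8.89 ± 4.33 in PBS libraries. The difference was 0.69 (SE 0.29, limma adjusted p = 0.992, unadjusted p = 0.0296). Galnt2 had 6 to 21 reads per library, and its PBS mean lay under the filter of 10. It was thus tested only through its P. gingivalis values, which limits the reading of its difference and p. Slc35c1, the GDP-fucose transporter of the Golgi, differed by 0.27 (SE 0.12) and B4galt4, a galactosyltransferase, by -0.32 (SE 0.19), or -0.17 without the 3 libraries. Chst5 and St6galnac1 were below the filter.

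In the list of mucin folding and secretory granule genes 28 of 29 were tested, 6 positive and 22 negative (median -0.08), with 0 called and 0 at an unadjusted p under 0.05. Its members with the smallest p were Agr3, Tmed3 and Mlph. Agr3, a relative of Agr2, differed by -0.36 (SE 0.21). Tmed3, a protein of transport vesicles, differed by -0.24 (SE 0.14), or -0.12 without the 3 libraries. Mlph, which links granules to myosin, differed by 0.17 (SE 0.11). The 3 libraries with little Fabp6 lay below all others for 8 of these 28 genes, among them Ern2, a stress sensor of goblet cells, and the granule GTPases Rab27b and Rab3d, and above all others for 1, the coat protein gene Sec24d. Such genes numbered 6 below and 2 above of 28 in the O-glycosylation list, and 2 and 2 of 18 among the factors and signals. They numbered 5 and 3 of 26 among the other mucins and products. Those 5 include the brush border gene Mep1a, and those 3 include Itln1, also counted among the Paneth cell markers. Over all genes tested the shares were 4.93% below and 6.46% above.

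The list named other mucins and goblet cell products gave 26 tested genes of the 37 in the table. Of these 9 were positive and 17 negative (median -0.08), with 0 called. Not all are goblet cell genes: the list holds the brush border gene Mep1a and shares Ang4 and Itln1 with the Paneth cell markers. The 3 with the smallest p were all membrane mucins with higher means after P. gingivalis. Muc3a averaged 106 ± 29.2 in P. gingivalis and 71.2 ± 19.5 in PBS libraries, a difference of 0.56 (SE 0.22, limma adjusted p = 0.992, unadjusted p = 0.0219). Muc4 averaged 67.8 ± 36.2 and 36.9 ± 10.6 in the same order, a difference of 0.73 (SE 0.33, unadjusted p = 0.0454 by limma). Muc3 averaged 5505 ± 1780 in P. gingivalis and 3868 ± 1051 in PBS libraries, a difference of 0.48 (SE 0.25, unadjusted p = 0.0777 by limma). Without the 3 libraries with little Fabp6 the difference of Muc4 was 0.41, that of Muc3a 0.50 and that of Muc3 0.44. The groups overlapped for all 3 genes, and P. gingivalis replicate 1, with little Fabp6, held the highest Muc3a and Muc4. Muc3 and Muc3a lie near each other on chromosome 5 and may share reads.

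Mucins and trefoil peptides of other organs were at or near 0. Muc5b, Muc6, Tff1 and Tff2 had 0 reads in all 12 libraries, and Muc5ac had 1 read, in P. gingivalis replicate 4. Retnla, a relative of Retnlb, was below the filter and had 0, 0, 0, 2, 1 and 14 reads in P. gingivalis replicates 1 to 6, against 20, 10, 16, 24, 8 and 10 in PBS libraries. Fat cell markers moved with it. Their summed level ran from 537 to 3064 normalized counts in P. gingivalis and from 1963 to 8041 in PBS libraries. Among P. gingivalis libraries it was highest in replicate 6. All 8 markers were negative and at a limma unadjusted p under 0.05, beside 2.16% of all genes tested that were lower at that p. At the adjusted p limma called 0 of the 8. Adipoq, which defines fat cells, was at 0 in P. gingivalis replicates 1 to 3. The part of fat tissue in the Retnla reads was not tested.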

How the data were processed

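RNA was measured in 12 libraries of mouse distal ileum, 6 P. gingivalis and 6 PBS, per the labels. The deposited table holds a normalized signal per gene, which its name describes as DESeq2 normalized counts (read counts scaled by the authors with a size factor for each library). Every value was a whole multiple of its library's step (100% within 0.001 reads, largest deviation 0.000225 reads), so reads could be recovered, 6553306 to 10378841 per library. FastQC, HISAT2, Cufflinks, DESeq2 and the build GRCm38 (mm10) are listed, without versions, in the submitters' processing notes. The strand setting, counter and gene annotation were not given in the sources used here, so overlapping genes and related families (Clca, Muc3, Retnl) are uncertain.

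Groups were compared with limma 3.58.1 (R 4.3.3, mean-variance trend) on log2(normalized count + 1) for 15025 genes with a mean of at least 10, two-sided, with Benjamini-Hochberg adjustment over all of them. With a pseudocount of 1, fold changes of genes with few reads are understated. The steps were tested on simulated data. edgeR 4.0.16 and DESeq2 1.42.0 were run on recovered reads. Read counts of any 2 libraries differed beyond sampling noise (chi-square per degree of freedom of at least 6.53).

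The genes and lists were chosen with earlier results of these data known. Named genes are the 10, the 3 with the smallest p of each wider list without 3 calls, the 5 most like Muc2, and those marked as chosen otherwise. Lists used beside them cover pan-epithelial, enterocyte, Paneth, tuft, enteroendocrine, smooth muscle, B, T, fat, mesothelial and gut position genes. Some genes are shared: Ang4, Itln1 and Dll4 of the wider lists with the Paneth list, and Elf3 with the pan-epithelial list. Apoa4 is in both the enterocyte and the gut position list. Coordinates are GENCODE M21 (GRCm38). Alternatives were other pseudocounts, filters and scalings, a replicate block, sample weights, an epithelial covariate, edgeR, DESeq2 and leaving out libraries.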

Additional observations from a re-analysis of the deposited data

Results flagged for a closer look

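Of 43 groups of 6 values examined for the 10 genes and the 12 named from wider lists, 4 held a library far from the other 5. Chance gives about 1 in 20 groups if the groups are independent and their values normally distributed. These groups share libraries, so that rate is only a rough guide. A group with 1 value above 0 and the rest at 0, like that of Retnlb, is always flagged. Retnlb was at 7.83 normalized counts in P. gingivalis replicate 6 and at 0 in the other 5 P. gingivalis libraries. Spdef was at 195 in PBS replicate 6, against 238 to 256 in the other PBS libraries. Spink4 was at 5091 in PBS replicate 2, against 2647 to 3250, and Foxa3 was at 221 in PBS replicate 5, against 178 to 189.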

How the results depend on the processing

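Over 11 other settings, the leaving out of each library and the leaving out of 3 together (added after seeing the data), 0 of the 9 tested genes and 0 of the wider lists were called, with adjusted p of at least 0.578 for the 9 genes and 0.236 for the other named genes. Of 216 differences of the 9 genes 210 kept their sign and 6 reversed. Fcgbp reversed without P. gingivalis replicates 2 (-0.064), 4 (-0.00208) or 5 (-0.02) or PBS replicate 1 (-0.02), and ranged from -0.064 to 0.25 over the libraries left out. Without single libraries the other differences ranged from 0.14 to 0.43 for Muc2, -0.50 to -0.25 for Tff3, -0.50 to -0.058 for Clca1, -0.55 to -0.25 for Zg16, -0.46 to -0.077 for Agr2, -0.24 to -0.051 for Spdef, -0.27 to -0.044 for Spink4 and 0.15 to 0.28 for Muc13. Clca1, Agr2 and Spdef came nearest to 0 without P. gingivalis replicate 1, Spink4 without PBS replicate 2. Agr2 (0.030) and Spdef (0.016) reversed without the 3 libraries with little Fabp6. All 285 differences of the 12 other named genes kept their sign. Counts over all genes moved more: 1 lower with a pseudocount of 5, 1 higher and 19 lower with sample weights, 3 lower with the epithelial covariate, 3 higher and 30 lower with DESeq2, 1 higher without the 3 libraries together, and 0 to 1 higher and 0 to 52 lower without single libraries (52 without P. gingivalis replicate 6). The causes were not tested.

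The replicate numbers did not pair the libraries: same-numbered libraries had correlations of deviations from -0.54 to 0.08, and none correlated best with its own number. With the replicate block 0 genes were called. Retnlb was at or under the limit of detection in 11 libraries.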
